A study of Mus musculus with 43 samples.

Results

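This account follows 10 genes of lipoprotein and lipid efflux biology, Apoe, Clu, Apod, Abca1, Abcg1, Nr1h2, Nr1h3, Lcat, Soat1 and Npc2, chosen by name out of the 55416 genes counted in each of 43 RNA-sequencing libraries. The libraries were made from oligodendrocytes, oligodendrocyte precursor cells (OPCs), astrocytes and microglia, taken in turn from the cortical cell suspension of adult mice on antibody-coated plates (immunopanning). Rag2-/- mice lack mature T and B lymphocytes because Rag2 is needed to rearrange antigen receptor genes, and they were compared with immunocompetent littermates, of which 4 were Rag2+/- and 2 were Rag2+/+. All mice came from 1 colony on a C57BL/6J background, they received no treatment, and the 12 mice formed 6 littermate pairs. Controls and Rag2-/- mice gave 4 and 4 oligodendrocyte libraries, 6 and 5 OPC libraries, 6 and 6 astrocyte libraries and 6 and 6 microglia libraries. The deletion is present in every cell of the body, so the comparison of genotypes is not limited to lymphocytes, and Rag2 itself can check the labels only weakly, since its highest count was 4 in control OPCs and 1 in control microglia and it was at 0 in all other control libraries and in every Rag2-/- library.

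Cholesterol made in the brain does not exchange freely with the blood, and glia pass it between cells on small lipoprotein particles. The particles carry apolipoproteins such as ApoE and clusterin, the transporters ABCA1 and ABCG1 load them with lipid, and LCAT esterifies the cholesterol they hold. Inside cells NPC2 moves cholesterol out of the lysosome, SOAT1 esterifies it for storage, and the oxysterol receptors LXRα (Nr1h3) and LXRβ (Nr1h2) raise transcription of efflux genes.

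Abca1 is a textbook target of the LXR receptors, which bind with RXR to paired copies of a short hexamer, so the promoters of the genes were searched for that arrangement. The motif was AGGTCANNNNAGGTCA on both strands with up to 3 mismatches, and the window was the 250 bases before each transcription start in the RefSeq promoter table of build GRCm38.p6. The table held 8 of the 10 genes, without Clu and Abcg1. Those 8 genes had 11 promoters in the table, of which 2 held a match (18.2%), 1 of Abca1 and 1 of Lcat, and 18.5% of all 32851 promoters in the table held one, a like share. Both upstream windows are on the minus strand, Abca1 at chr4:53159896-53160145 and Lcat at chr8:105943403-105943652, written 5′ to 3′ along the gene with the match in capitals. They are shown because they are the windows of the genes studied that hold the letters of the motif.
Abca1: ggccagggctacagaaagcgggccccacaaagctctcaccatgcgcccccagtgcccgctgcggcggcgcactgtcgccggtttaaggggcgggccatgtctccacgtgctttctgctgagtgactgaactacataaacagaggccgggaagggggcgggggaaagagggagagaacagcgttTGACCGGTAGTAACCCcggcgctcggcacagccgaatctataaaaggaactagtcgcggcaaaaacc
Lcat: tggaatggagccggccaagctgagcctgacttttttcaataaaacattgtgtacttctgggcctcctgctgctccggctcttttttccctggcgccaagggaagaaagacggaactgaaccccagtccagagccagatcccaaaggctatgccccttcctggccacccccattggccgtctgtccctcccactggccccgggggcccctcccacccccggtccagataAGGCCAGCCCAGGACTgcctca
The match lay at bases -67 to -52 of Abca1, on the strand opposite to the gene, and at bases -22 to -7 of Lcat, on the strand of the gene, and each had 3 mismatches. Abca1 was highest in microglia and Lcat in astrocytes, and the match is a description of letters only.

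Counts on genes ranged from 6499417 to 23118497 per library. Mitochondrially encoded genes took 6.75% to 11.7% of them in microglia, 22.5% to 45.1% in astrocytes, 22.4% to 36.7% in OPCs and 45.8% to 60.1% in oligodendrocytes. Levels are therefore given as normalized CPM, counts divided by a library size that was scaled by TMM over all 43 libraries and brought to the usual CPM scale. Libraries of 1 cell type were sequenced together on 1 lane, so a difference between cell types and a difference between lanes cannot be told apart. In these bulk libraries a lower level can come from fewer cells of a type or from less RNA per cell, which cannot be told apart either. Markers of other cell types were present in the libraries. In control OPC libraries the 8 astrocyte markers were at 6.48% to 14.6% of their astrocyte level, and in control astrocyte libraries the 7 oligodendrocyte markers were at 12.4% to 27.2% of their oligodendrocyte level. The plot of levels shows every library for each of the 10 genes.

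**Figure D1:**
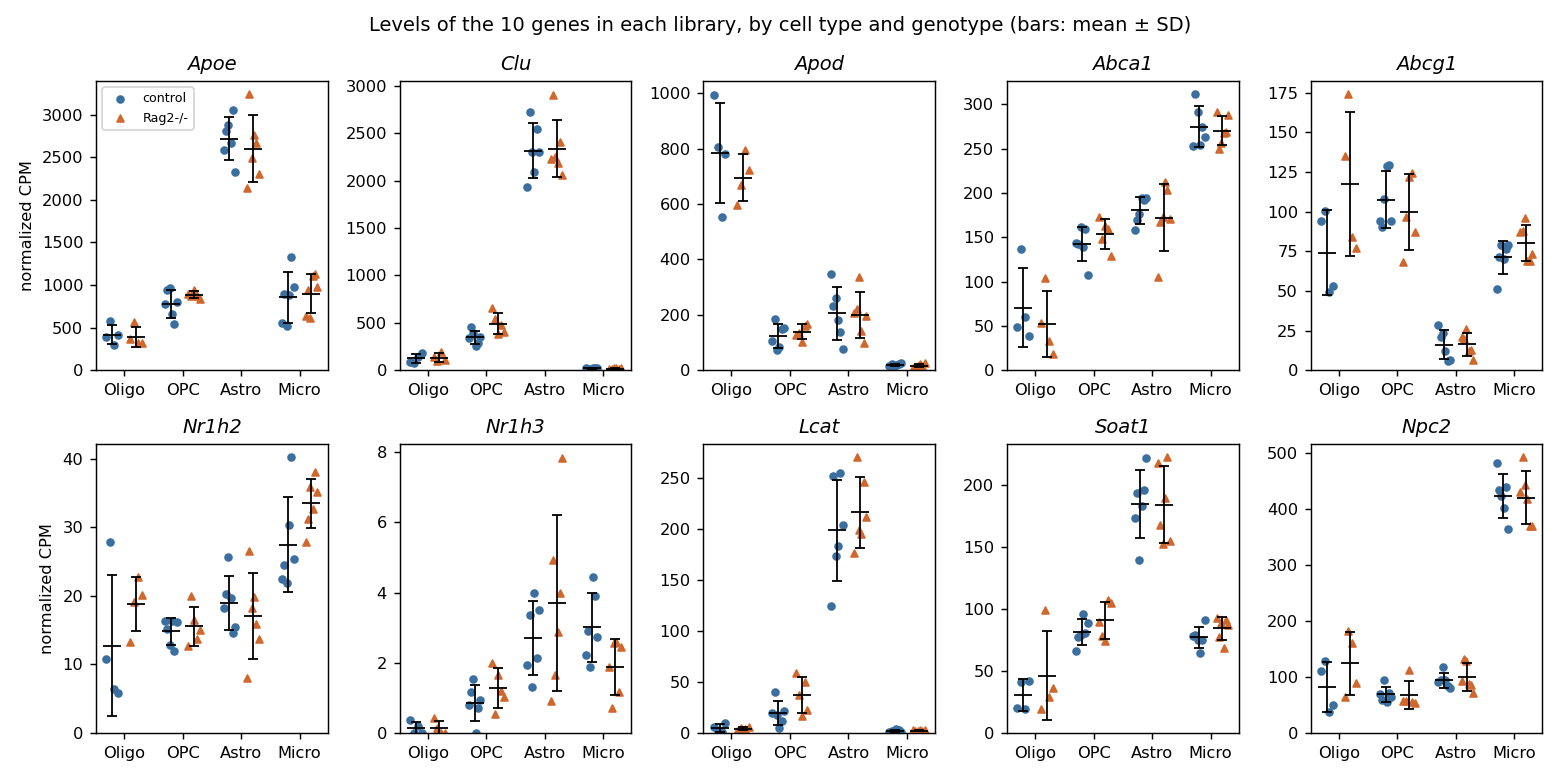
Normalized CPM (vertical axes, linear from 0) of each gene in each library of oligodendrocytes (Oligo), OPCs, astrocytes (Astro) and microglia (Micro), with circles for control and triangles for Rag2-/- libraries and bars for the mean ± SD. Apoe, Clu, Lcat and Soat1 are highest in astrocytes, Apod in oligodendrocytes and Abca1 and Npc2 in microglia, in both genotypes.

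Differences between cell types were tested in control libraries with edgeR's quasi-likelihood test in 1 fit of all libraries, with Benjamini-Hochberg adjustment over 21368 genes and a threshold of 0.05. Between oligodendrocytes and OPCs 7 of the 10 genes differed (26.5% of all genes tested), 1 higher in oligodendrocytes (12.2%) and 6 lower (14.3%). Against astrocytes 8 differed (36.2%), 2 higher in oligodendrocytes (20%) and 6 lower (16.2%), and against microglia 9 differed (56.4%), 3 higher in oligodendrocytes (29.3%) and 6 lower (27.1%). OPCs differed from astrocytes in 7 genes (29.9%), 1 higher in OPCs (17.3%) and 6 lower (12.6%). They differed from microglia in 7 genes (58.2%), 3 higher in OPCs (32.4%) and 4 lower (25.8%). Between astrocytes and microglia 8 genes differed (58.7%), 5 higher in astrocytes (30.7%) and 3 lower (28%). In the contrasts with microglia 56.4% to 58.7% of all genes differed, so the counts of these genes lie nearest to the background there. The genes fell into those highest in astrocytes, in oligodendrocytes and in microglia, with Abcg1 apart.

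Apoe (chromosome 7, 19430034 to 19434947, minus strand, build GRCm39) encodes the main apolipoprotein of the brain. In control astrocytes its level was 2322 at the lowest, 2734 at the median and 3051 normalized CPM at the highest. Control microglia lay between 522 and 1332, with a median of 885, and control OPCs between 545 and 962, with a median of 789. The 4 control oligodendrocyte libraries were at 385, 577, 301 and 408. No astrocyte library overlapped with any other cell type, while OPCs and microglia covered much the same range. Astrocytes exceeded oligodendrocytes by 6.45-fold (log2 2.69 with SE 0.233, adjusted p = 3.43e-12 by edgeR), OPCs by 3.47-fold (adjusted p = 5.59e-10) and microglia by 3.18-fold (adjusted p = 5.45e-10). OPCs and microglia did not pass the threshold against each other (log2 -0.13 with SE 0.186, adjusted p = 0.576).

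Clu (chromosome 14, 66190200 to 66218999, plus strand) encodes clusterin, also named apolipoprotein J, an extracellular chaperone. Control astrocytes ranged from 1931 to 2728 normalized CPM with a median of 2302, control OPCs from 258 to 451 with a median of 347, and control microglia from 13.5 to 27.2 with a median of 20.7. Control oligodendrocytes were at 90.1, 75.9, 143 and 186. The 4 cell types occupied separate ranges, in the order astrocytes, OPCs, oligodendrocytes, microglia, and every step of it passed the test. Astrocytes exceeded OPCs by 6.67-fold (adjusted p = 2.9e-13), OPCs exceeded oligodendrocytes by 2.78-fold (adjusted p = 6.94e-06) and oligodendrocytes exceeded microglia by 5.99-fold (adjusted p = 9.67e-13).

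Lcat (chromosome 8, 106665839 to 106670046, minus strand) encodes the enzyme that esterifies cholesterol on lipoproteins. Its control levels were 125 to 256 normalized CPM in astrocytes, with a median of 194, and 5.03 to 40.0 in OPCs, with a median of 18.5. The control oligodendrocyte libraries were at 5.60, 2.32, 0.947 and 9.79, and the control microglia libraries ran from 0.476 to 3.36, where the counts were only 3 to 43. Astrocytes stood clear of all other libraries and exceeded OPCs by 10.4-fold (log2 3.38 with SE 0.377, adjusted p = 1.7e-09). Oligodendrocytes exceeded microglia by 2.73-fold (adjusted p = 0.0075). This call was lost without control oligodendrocyte replicate 6 (log2 0.76, adjusted p = 0.212) and when libraries were scaled by their totals (log2 0.47, adjusted p = 0.394). Replicate 6 also had the highest astrocyte marker sum of the control oligodendrocyte libraries, 3584 normalized CPM against 1504, 1313 and 2096. The part of astrocyte RNA in its Lcat level was not tested.

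Soat1 (chromosome 1, 156252095 to 156303864, minus strand) encodes the enzyme that stores cholesterol as ester in the endoplasmic reticulum. Control astrocytes ranged from 139.7 to 222 normalized CPM, with a median of 189, control OPCs from 66.2 to 96.2, with a median of 79.8, and control microglia from 64.6 to 91.2, with a median of 76.7. Control oligodendrocytes were lowest, at 20.4, 41.2, 19.1 and 41.9. Astrocytes exceeded OPCs by 2.28-fold (adjusted p = 5.05e-05), microglia by 2.4-fold (adjusted p = 5.95e-06) and oligodendrocytes by 6.12-fold (adjusted p = 5.38e-10). OPCs against microglia did not pass the test (log2 0.07 with SE 0.221, adjusted p = 0.793).

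These 4 genes can be set beside the astrocyte markers in the other libraries. In control OPCs, where the markers stood at 6.48% to 14.6% of their astrocyte level, Lcat stood at 9.67%, Clu at 14.96%, Apoe at 28.7% and Soat1 at 44.0%. In control microglia, where the markers stood at 0.419% to 3.69%, Lcat stood at 0.879% and Clu at 0.894%, but Apoe at 31.6% and Soat1 at 41.8%. In control oligodendrocytes the markers stood at 3.24% to 12.9%, Lcat at 2.34%, Clu at 5.34%, Apoe at 15.4% and Soat1 at 16.6%. Apoe and Soat1 lay above the astrocyte marker range in all 3 other cell types. Lcat lay within or below it in each, and Clu lay within it in microglia and oligodendrocytes and just above it in OPCs. Control oligodendrocyte libraries also held microglia markers at 4.83% to 10.9% and OPC markers at 7.79% to 25.9% of their level in those cell types. The part of RNA from other cell types in the levels of these 4 genes was not tested.

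**Figure D2:**
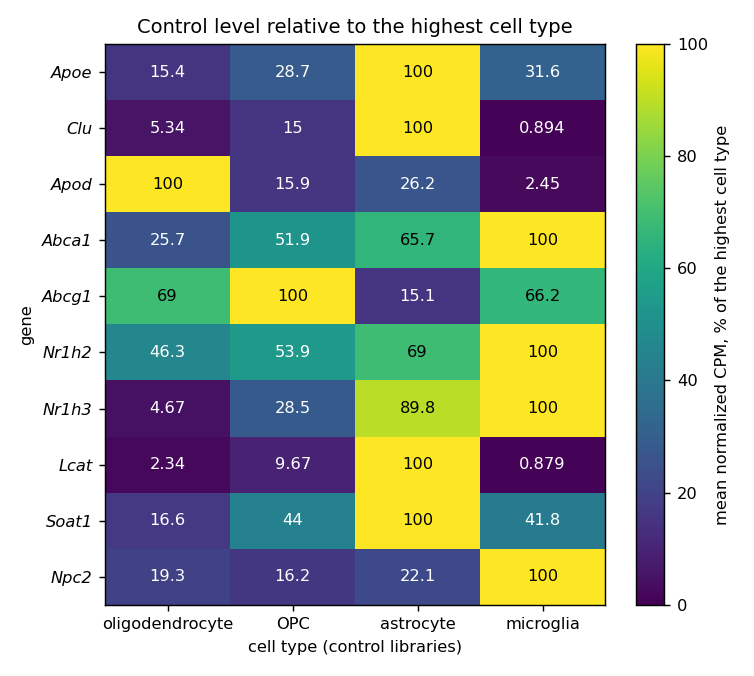
Mean normalized CPM of each gene (rows) in control libraries of each cell type (columns), in percent of the cell type where the gene is highest. Clu and Lcat fall under 1% of their astrocyte level in microglia, whereas Apoe and Soat1 keep 31.6% and 41.8%.

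Apod (chromosome 16, 31115010 to 31135355, minus strand) encodes apolipoprotein D, a lipocalin that binds small lipids. An opposite-strand gene model overlaps 26.4% of its exonic bases, so part of its count cannot be assigned with certainty. The control oligodendrocyte libraries were at 995, 806, 552 and 781 normalized CPM, above every library of the other cell types. Control astrocytes ranged from 76.5 to 348, control OPCs from 74.8 to 185 and control microglia from 13.4 to 25.1. Oligodendrocytes exceeded astrocytes by 3.84-fold (log2 1.94 with SE 0.302, adjusted p = 1.96e-06), OPCs by 6.37-fold (adjusted p = 6.8e-09) and microglia by 41.2-fold (adjusted p = 3.39e-17). The astrocyte level was 26.2% of the oligodendrocyte level, within the 12.4% to 27.2% at which the oligodendrocyte markers stood in the same libraries. In OPCs, where those markers were at 1.43% to 4.07%, Apod was at 15.9%. The part of oligodendrocyte RNA in either level was not tested. Astrocytes and OPCs overlapped and differed by 1.66-fold (adjusted p = 0.0396), a call lost with library totals as the scale (adjusted p = 0.389), with the mouse as a replicate block (adjusted p = 0.0623) and without control astrocyte replicate 1 (adjusted p = 0.17), 2 (0.0694) or 3 (0.0889) or control OPC replicate 3 (0.069) or 4 (0.0605).

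Abca1 (chromosome 4, 53030787 to 53159900, minus strand) encodes the transporter that passes cholesterol and phospholipid to lipid-poor apolipoproteins. It was highest in microglia, at 252.5 to 311 normalized CPM with a median of 269 in controls. Control astrocytes lay between 158 and 194 and control OPCs between 107 and 162, and these ranges overlapped. Control oligodendrocytes were at 48.7, 136, 59.5 and 38.1, with replicate 3 far above the other libraries of its group. That library also had the highest sum of the 8 microglia markers among them, 1269 normalized CPM against 494, 777 and 307, and the part of microglial RNA in its level was not tested. Microglia exceeded oligodendrocytes by 3.94-fold (adjusted p = 1.39e-07) and OPCs by 1.93-fold (adjusted p = 0.00072). Microglia exceeded astrocytes by 1.53-fold (adjusted p = 0.025), which missed the threshold without control astrocyte replicate 1 (adjusted p = 0.0527) or control microglia replicate 2 (0.0579). OPCs against astrocytes did not pass the test (log2 -0.34 with SE 0.235, adjusted p = 0.301), and with library totals as the scale the sign turned (log2 0.04).

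Npc2 (chromosome 12, 84801334 to 84820617, minus strand) encodes the lysosomal protein that hands cholesterol to NPC1. Control microglia ranged from 364 to 482 normalized CPM with a median of 429. The other cell types lay together, control astrocytes at 80.7 to 117, control OPCs at 55.2 to 93.7 and control oligodendrocytes at 111, 129, 37.9 and 50.3. Microglia exceeded astrocytes by 4.54-fold (adjusted p = 8.82e-11), oligodendrocytes by 5.31-fold (adjusted p = 7.3e-10) and OPCs by 6.18-fold (adjusted p = 1e-12). The 3 other contrasts did not pass the threshold, with adjusted p from 0.133 to 0.555. Of these, OPCs against astrocytes passed under 4 of 6 other settings (without the filter with adjusted p = 0.0283, with DESeq2 with 0.0424) and in 9 of 43 fits with 1 library left out. Of those 9 libraries, 7 were oligodendrocyte libraries, which are not in the contrast (adjusted p from 0.0298 to 0.0457), and the others were the control (0.0344) and the Rag2-/- (0.0384) OPC library of pair 3. With library totals as the scale oligodendrocytes fell below OPCs (log2 -0.78, adjusted p = 0.0221), the opposite sign to the value with TMM (log2 0.22). An opposite-strand gene overlaps 9.67% of the exonic bases of Npc2 and 5.06% of those of Nr1h3. Astrocytes, OPCs and oligodendrocytes kept 22.1%, 16.2% and 19.3% of the microglial level of Npc2, while the 8 microglia markers kept at most 2.53%, 5.86% and 10.9% there. The part of RNA from other cell types in these Npc2 levels was not tested.

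Nr1h2 (chromosome 7, 44199036 to 44203406, minus strand) and Nr1h3 (chromosome 2, 91014394 to 91033417, minus strand) encode the LXR receptors. Nr1h2 was expressed in all 4 cell types. Control microglia ranged from 21.9 to 40.3 normalized CPM, control astrocytes from 14.5 to 25.6 and control OPCs from 11.9 to 16.4, and control oligodendrocytes were at 10.8, 27.9, 6.44 and 5.81. Microglia exceeded OPCs by 1.85-fold (adjusted p = 0.00342) and oligodendrocytes by 2.12-fold (adjusted p = 0.00239). The other 4 contrasts missed the threshold, with adjusted p from 0.0762 to 0.661, although astrocytes against microglia passed it with the mouse as a replicate block (adjusted p = 0.0436), with library totals (0.0217) and without control replicate 3 of astrocytes (0.0427) or of oligodendrocytes (0.0441). Without control oligodendrocyte replicate 3, the highest of its group, oligodendrocytes fell below astrocytes (log2 -1.34, adjusted p = 0.000227) and OPCs (log2 -0.90, adjusted p = 0.0134). That library also had the highest microglia marker sum of its group, 1269 normalized CPM, and the part of microglial RNA in its Nr1h2 level was not tested.

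Nr1h3 was far lower. Its counts in control libraries were 14 to 57 in microglia, 12 to 37 in astrocytes, 0 to 20 in OPCs and 3, 0, 1 and 0 in oligodendrocytes. In normalized CPM the medians were 2.82 in microglia, 2.75 in astrocytes and 0.867 in OPCs, and the first 2 overlapped almost wholly (log2 of astrocytes against microglia -0.16 with SE 0.591, adjusted p = 0.836). Oligodendrocytes were below astrocytes (adjusted p = 0.000289) and microglia (adjusted p = 8.63e-05). The calls of OPCs against astrocytes (adjusted p = 0.0381) and against oligodendrocytes (adjusted p = 0.0303) rested on these few counts. The first was lost without control astrocyte replicate 2, 4 or 6 or control OPC replicate 4 or 5, with adjusted p up to 0.0785, as well as with library totals (0.103), no filter (0.0767) and the mouse as a replicate block (0.0968). The second was lost without control oligodendrocyte replicate 3, 5 or 6 or control OPC replicate 2 or 3, with adjusted p up to 0.0985, and with no filter (0.073) and the block (0.0671).

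Abcg1 (chromosome 17, 31276649 to 31336969, plus strand) encodes a transporter that moves cholesterol onto particles that already carry lipid, and it was the gene that set astrocytes apart by a low level. Control astrocytes ranged from 6.08 to 28.4 normalized CPM. Control OPCs ranged from 90.1 to 129 and control microglia from 51.3 to 78.9, and control oligodendrocytes were at 94.3, 100.4, 49.0 and 53.1. No control astrocyte library reached any library of the other types. Astrocytes were below OPCs by 6.75-fold (log2 of OPCs against astrocytes 2.76 with SE 0.288, adjusted p = 3.58e-10), below oligodendrocytes by 4.49-fold (adjusted p = 2.43e-07) and below microglia by 4.48-fold (adjusted p = 1.38e-08). Abca1 and Abcg1, partners in lipid efflux, therefore differed in their order across cell types. The highest and the lowest cell type of Abca1 were microglia and oligodendrocytes, those of Abcg1 OPCs and astrocytes. OPCs against microglia missed the threshold for Abcg1 (log2 0.59, adjusted p = 0.0551) and passed it under 3 of 6 other settings, with the mouse as a replicate block (adjusted p = 0.0498), no filter (0.0281) and library totals (0.0266). It also passed in 5 of 43 fits with 1 library left out, without control astrocyte replicate 1, 5 or 6, Rag2-/- astrocyte replicate 6 or control microglia replicate 5, with adjusted p from 0.0386 to 0.0474. In Rag2-/- libraries the highest mean of Abcg1 was that of oligodendrocytes, at 117 normalized CPM against 99.6 in OPCs.

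Levels can be compared between genes only per length, here as normalized CPM per kilobase of the canonical transcript. In control astrocytes Clu (1276 ± 160 SD) and Apoe (1246 ± 116 SD, both n = 6) were level, and their order turned when the length of all exons was used. Lcat followed at 116, and Abcg1 at 2.77 and Nr1h3 at 1.28 were last. In control oligodendrocytes Apod led with 373 ± 86.3 (SD, n = 4), ahead of Apoe with 192. In control microglia Apoe led with 393, ahead of Npc2 with 106 and Abca1 with 26.7. In control OPCs Apoe led with 358, ahead of Clu with 191. Nr1h2 exceeded Nr1h3 per length in every cell type, at 9.04 against 1.28 in control astrocytes and 13.1 against 1.42 in control microglia.

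The same contrasts in Rag2-/- libraries are a second set of mice from the same litters. Of the 60 contrasts of a gene between a pair of cell types, 46 passed the threshold in controls and 44 in Rag2-/- libraries. In the Rag2-/- libraries 8 of 10 genes differed between oligodendrocytes and OPCs (27.8% of all genes), 8 between oligodendrocytes and astrocytes (39.3%) and 8 between oligodendrocytes and microglia (57.6%). The count was 5 for OPCs against astrocytes (25.3%), 6 for OPCs against microglia (57.3%) and 9 for astrocytes against microglia (58.6%). In 42 contrasts both passed, all with the same direction, and in 12 neither did. The remaining 6 had the same direction in both genotypes and passed in only 1. They were Nr1h2 in astrocytes against microglia, Npc2 in oligodendrocytes against OPCs, Lcat in oligodendrocytes against microglia, Apod and Nr1h3 in OPCs against astrocytes and Nr1h3 in OPCs against microglia. None of the 10 genes passed the test that the genotype difference varied among cell types (edgeR, lowest adjusted p = 0.551 for Clu, 0.248% of all genes passed), none did at an unadjusted p under 0.05, and DESeq2 called 0 of them as well.

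The question of the study was whether glia change without lymphocytes. For the 10 genes, no genotype difference passed the test in any cell type. With edgeR, sex in the model and genes adjusted within each cell type, 0 of the 9 genes tested in oligodendrocytes (0% of all genes passed) and 0 of 10 in OPCs (0.00592%), astrocytes (0.00679%) and microglia (0.00667%) were called. DESeq2 also called 0 of these genes, though over all genes it called 13 in oligodendrocytes. The study itself used DESeq2 and reported modest expression differences in oligodendrocytes, so the 0% there holds for the edgeR fit. By edgeR the counts of the 10 genes at an unadjusted p under 0.05 were 1, 2, 0 and 0, where 3.38%, 4.02%, 2.87% and 2.9% of all genes were. The lowest adjusted p over all 39 tests was 0.998. The standard errors of the differences ran from 0.0908 to 0.477 on the log2 scale in astrocytes and from 0.21 to 1.03 in oligodendrocytes.

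**Figure D3:**
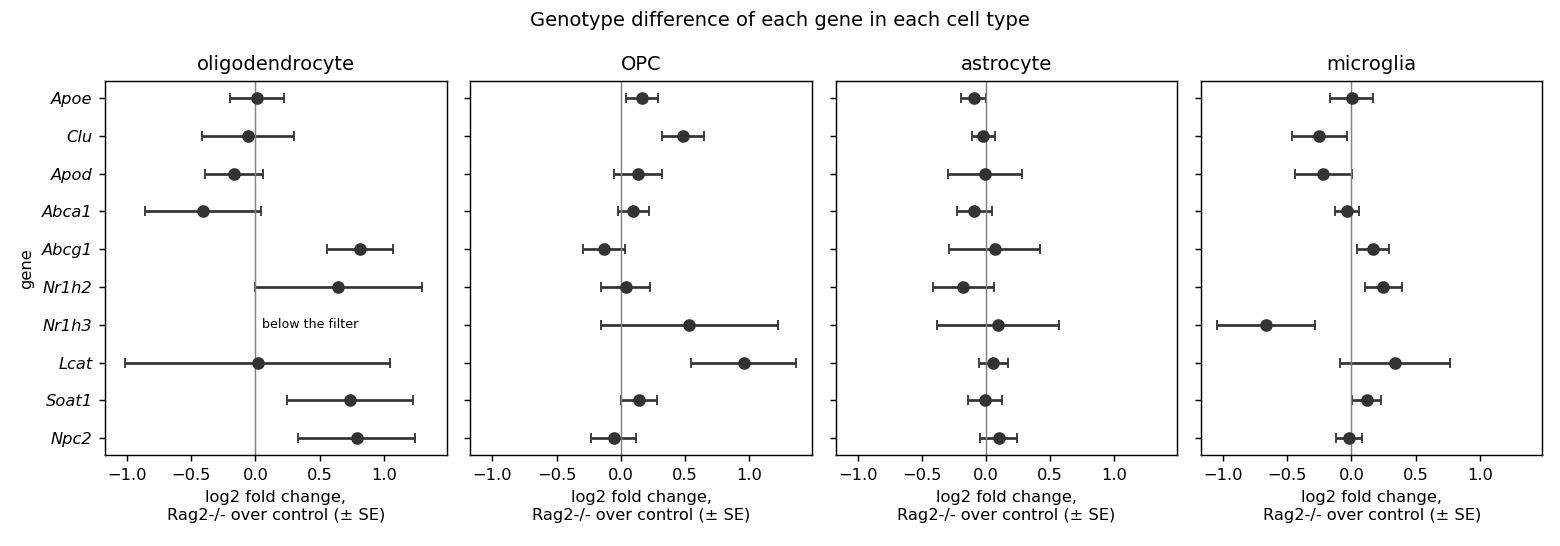
Log2 fold change of Rag2-/- over control (horizontal axis, bars ± SE from edgeR) for each gene in each cell type, where 0 is no difference. The widest bar is that of Lcat in oligodendrocytes (SE 1.03), and no difference passed the adjusted threshold.

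In astrocytes, where Apoe, Clu and Lcat were highest, the gene with the smallest p was Apoe, with a Rag2-/- range of 2142 to 3247 normalized CPM and a median of 2581 against 2734 in controls (log2 -0.10 with SE 0.0976, unadjusted p = 0.339). Clu differed by log2 -0.02 with SE 0.0908, Lcat by 0.06 with SE 0.113 and Soat1 by -0.01 with SE 0.133. In microglia Nr1h3 had the smallest p, at 0.704 to 2.59 in Rag2-/- libraries and 1.87 to 4.45 in controls (log2 -0.67 with SE 0.385, unadjusted p = 0.0978). The 2 groups overlapped, and their counts did not exceed 57. Apoe in microglia had a log2 difference of 0.00 with SE 0.168.

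In oligodendrocytes Abcg1 had the smallest p. The Rag2-/- libraries were at 135, 174, 84.2 and 76.9 normalized CPM and the controls at 94.3, 100.4, 49.0 and 53.1. The groups overlapped, but in each of the 4 littermate pairs the Rag2-/- library was higher, by 1.43 to 1.73 times. The log2 difference was 0.81 with SE 0.258 (unadjusted p = 0.00855, adjusted p = 0.998). It was 0.65 with the littermate pair as a replicate block, 0.73 with the OPC marker sum as a covariate, a fit chosen after seeing the data, and 0.68 to 0.89 with any library left out, and none of these passed the threshold.

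In OPCs Clu and Lcat had an unadjusted p under 0.05. Clu was at 658, 543, 378, 474 and 401 normalized CPM in Rag2-/- libraries and 258 to 451 in controls, with a median of 347 (log2 0.49 with SE 0.164, unadjusted p = 0.00927, adjusted p = 0.9998 by edgeR). Lcat was at 58.6, 37.4, 16.9, 49.5 and 22.7 in Rag2-/- libraries and 5.03 to 40.0 in controls (log2 0.96 with SE 0.409, unadjusted p = 0.033). For both genes the groups overlapped, and the largest gaps were in pairs 1 and 4, where Rag2-/- Lcat was 2.99 and 9.85 times its littermate. Without the filter on low counts both were called, Clu with adjusted p = 0.0151 and Lcat with adjusted p = 0.000507, among 90 of 33850 genes.

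In pairs 1 and 4, where these differences were largest, marker RNA of several other cell types differed as well. The summed level of the 8 astrocyte markers was 2086 to 3058 normalized CPM in control OPC libraries and 2432 to 5824 in Rag2-/- ones, with medians of 2677 and 3994. The Rag2-/- library of pair 1 had the highest sum, the highest Clu and the highest Lcat. In pairs 1 and 4 the endothelial marker sum was 102.7 and 78.5 in the Rag2-/- mouse against 23.6 and 19.7 in its littermate, and that of mural cells and fibroblasts 282 and 221 against 124 and 95.2. The oligodendrocyte marker sum was 1021 against 350 in pair 4 and 334 against 259 in pair 1, and the OPC marker sum was lower in both Rag2-/- libraries, 3554 against 4711 and 3710 against 4803. Pair 2 was mixed. Its astrocyte marker sum was 4026 in the Rag2-/- mouse against 3058 in the control, and Clu was 543 against 451. But Lcat was 37.4 against 40.0 there, and the mural and fibroblast sum 209 against 239. The part of each of these cell types in the genotype differences was not tested separately. In a fit chosen after seeing the data, with the astrocyte marker sum as a covariate, the log2 difference of Clu was 0.07 and that of Lcat -0.04. The sum holds Aldoc and Slc1a3, which over the 43 libraries were among the genes most like Clu (r = 0.991) and Lcat (r = 0.978). The fit therefore cannot tell from which cells the Clu and Lcat RNA came. The plot of Clu and Lcat beside that sum shows the 11 OPC libraries.

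**Figure D4:**
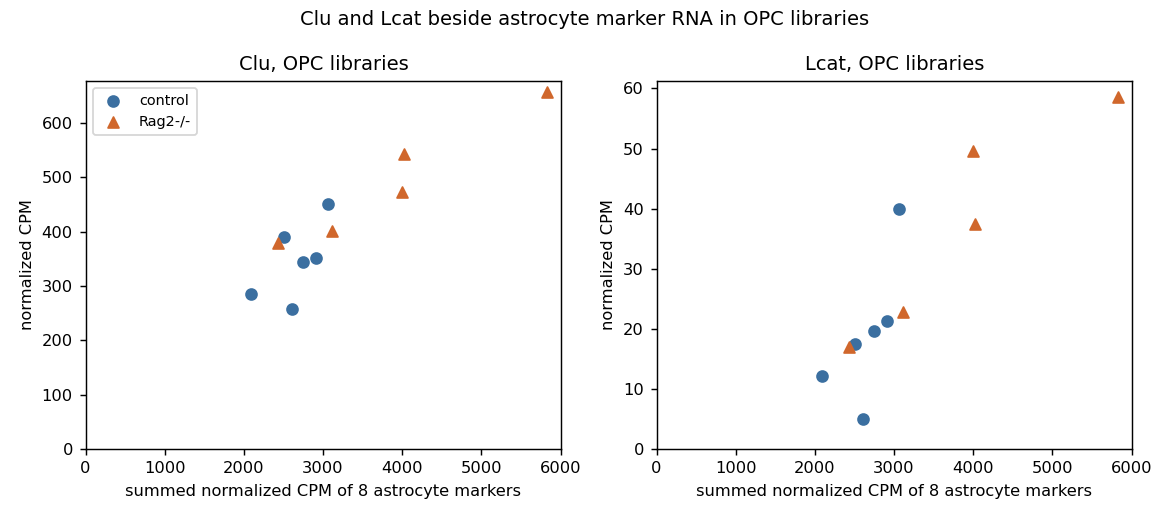
Normalized CPM of Clu (left) and Lcat (right) against the summed normalized CPM of 8 astrocyte markers in the 11 OPC libraries, circles for control and triangles for Rag2-/-. The library with the highest marker sum, 5824, also has the highest Clu (658) and Lcat (58.6).

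Some of the genes varied by littermate pair. In microglia Apoe was 550 and 637 normalized CPM in the control and the Rag2-/- mouse of pair 1 and 522 and 608 in pair 3. The values were 891 and 941 in pair 2, 879 and 1108 in pair 4, 1332 and 1131 in pair 5 and 975 and 978 in pair 6. Pair means spanned 2.18-fold, whereas the Rag2-/- mouse was 0.849 to 1.26 times its littermate. The anti-CD45 plates can also bind border macrophages, which express Apoe, and the 6 border macrophage markers summed to 650 and 490 in pair 1, 341 and 395 in pair 3 and 526 to 832 in the others. Pair 3, low in Apoe, had the lowest sums. In pair 1, also low in Apoe, the control was inside the range of the others and the Rag2-/- library was below it. The part of border macrophages in the result was not tested.

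Abcg1 in astrocytes was 28.4 and 20.99 normalized CPM in pair 1, 20.8 and 19.4 in pair 2 and 23.2 and 25.8 in pair 3. It was 12.0 and 12.4 in pair 4, 6.08 and 12.5 in pair 5 and 6.62 and 6.56 in pair 6. Pairs 1, 2 and 3 lay above all libraries of the other pairs, and pair means spanned 3.75-fold. The control mean of Abcg1 was 16.2 in astrocytes and 74.2 in oligodendrocytes. Oligodendrocyte markers stood at 12.4% to 27.2% of their oligodendrocyte level in control astrocyte libraries. The part of RNA from other cell types in these Abcg1 levels was not tested. Apod in astrocytes had pair means from 117 to 299, a 2.57-fold span. Littermates differed widely too, and the Rag2-/- mouse was 0.596 to 2.57 times its littermate. The largest ratio was that of pair 6, where the Rag2-/- library (197) was well above its littermate (76.5). That Rag2-/- library had the highest oligodendrocyte marker sum among astrocyte libraries, 6174 against 3564 in its littermate, which was of the other sex. The astrocyte library with the highest Apod, the control of pair 1 (348), had a lower sum, 4520.5. The part of oligodendrocyte RNA in these Apod levels was not tested. The labels name no batch, so litter, day of preparation and other shared conditions of a pair cannot be told apart.

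**Figure D5:**
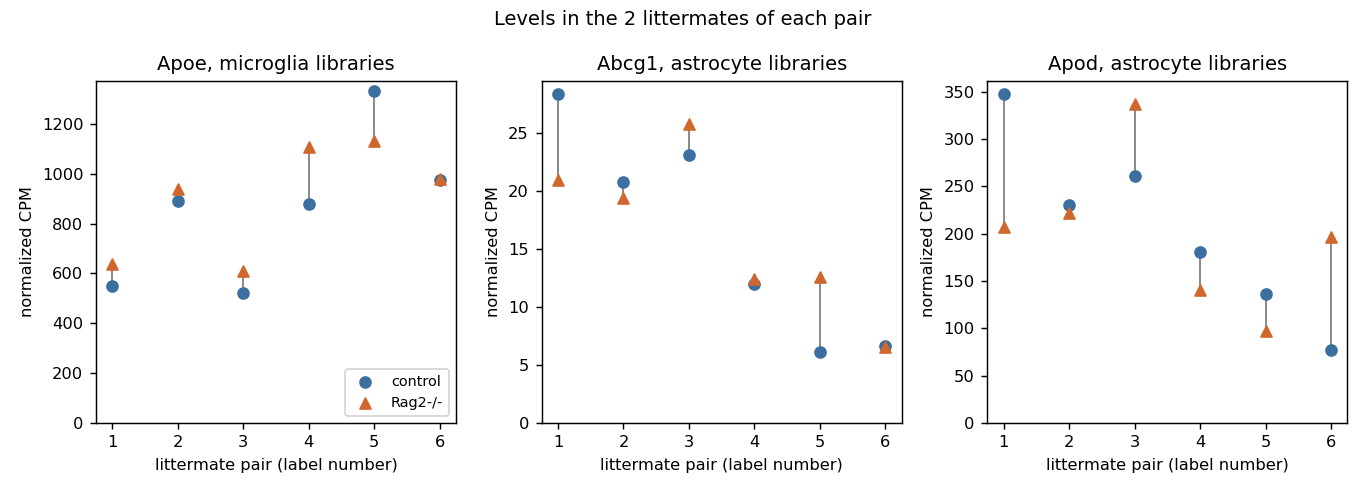
Normalized CPM (linear axes from 0) in the control (circle) and Rag2-/- (triangle) mouse of each littermate pair, joined by a line, for Apoe in microglia and for Abcg1 and Apod in astrocytes. Pair means span 2.18-fold for Apoe, 3.75-fold for Abcg1 and 2.57-fold for Apod. For Apod the Rag2-/- mouse was 0.596 to 2.57 times its littermate.

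Sex was the other term of the model. With edgeR 0 of the 10 genes passed between females and males in any cell type (9 tested in oligodendrocytes), where 0.0362%, 0.0296%, 0.0407% and 0.0467% of all genes passed in oligodendrocytes, OPCs, astrocytes and microglia, and DESeq2 called 0 too. At an unadjusted p under 0.05 the counts were 1, 1, 2 and 1, where 8.23%, 4.3%, 6.73% and 3.92% of all genes were. Lcat in astrocytes had the smallest p. Its 5 female libraries lay between 212 and 271 normalized CPM and its 7 male libraries between 125 and 204, without overlap (log2 female minus male 0.46 with SE 0.114, unadjusted p = 0.00075, adjusted p = 0.546). Apoe in microglia was 891 to 1332 in 5 female and 522 to 1108 in 7 male libraries (log2 0.49 with SE 0.169, unadjusted p = 0.00825, adjusted p = 0.9998). Without the filter both were called, Lcat with adjusted p = 0.0479 among 118 of 33626 genes (6 with the filter) and Apoe with adjusted p = 0.00925 among 25 of 32912 (7 with the filter). Females came from pairs 2, 5 and 6, and only pair 6 held both sexes, so the effects of sex and of pair can hardly be told apart. In pair 6 the male was the control and the female the Rag2-/- mouse. Their Lcat levels in astrocytes were close, at 204 and 212 normalized CPM, and so were their Apoe levels in microglia, at 975 and 978.

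A wider list of 51 genes of the pathway was followed alongside. By genotype 0 were called, of 39 tested in oligodendrocytes (0% of all genes passed) and the same number in microglia (0.00667%), 43 in OPCs (0.00592%) and 41 in astrocytes (0.00679%). For oligodendrocytes, OPCs, astrocytes and microglia there were 1, 1, 4 and 1 at an unadjusted p under 0.05 by edgeR, where 3.38%, 4.02%, 2.87% and 2.9% of all genes were. A genotype difference that varied among cell types was called for 0 of 48, where 0.248% of all genes passed. Median log2 differences were -0.18, -0.01, 0.00 and 0.02 in the same order, against 0.00, -0.01, 0.00 and -0.01 over all genes tested. Between control cell types 17 of 48 passed for oligodendrocytes against OPCs, where 26.5% of all genes did, 26 for oligodendrocytes against astrocytes (36.2% of all genes) and 36 for oligodendrocytes against microglia (56.4%). The count was 27 for OPCs against astrocytes (29.9%), 39 for OPCs against microglia (58.2%) and 43 for astrocytes against microglia (58.7%).

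The genes of these lists with the largest differences between control cell types were as follows. In microglia Lpl, lipoprotein lipase, was at 98.2 ± 17.6 normalized CPM (SD, n = 6) against 0.628 in astrocytes (log2 7.24 with SE 0.699, adjusted p = 6.68e-12 by edgeR). Mylip, the ligase that marks the LDL receptor for degradation, was at 243 in microglia against 2.49 in astrocytes (adjusted p = 2.36e-13). The transporter gene Abca9 was at 246 against 4.33 (adjusted p = 9.22e-15) and Arl4c, a small GTPase gene induced by LXR, at 297 against 19.4 (adjusted p = 2.99e-20). These 4 were highest in microglia.
In OPCs the receptor gene Vldlr was at 124 against 1.72 in microglia (adjusted p = 1.47e-18), and Gramd1c, for a sterol transfer protein, at 7.93 against 0.266 (adjusted p = 2.8e-06). Astrocytes led in Smpdl3a, a further LXR target, with 147 against 9.43 in oligodendrocytes (adjusted p = 7.93e-13), and in Cyp7b1, an oxysterol hydroxylase gene, with 24.4 against 0.174 in microglia (adjusted p = 3.59e-11). Oligodendrocytes led in Abca8a, with 26.98 ± 8.56 (SD, n = 4) against 0.521 in microglia (adjusted p = 1.36e-10). Apob, Ch25h and Soat2 were also named by the rule, all highest in microglia at means of 1.21, 0.731 and 2.52, and Apob and Ch25h were at 0 in every control astrocyte library.

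The genes whose level over the 43 libraries was most like that of each gene were found by Pearson's r of log2(normalized CPM + 1), given as a description, since libraries of 1 cell type share lane and most of their pattern. Among the genes most like Clu were Aldoc (r = 0.991) and Slc6a11 (0.989), and Lcat was most like Slc25a18 (0.981), Slc1a3 (0.978) and Grin2c (0.977). Apod was most like Ptgds (0.982), Efnb3 (0.982) and Pls1 (0.981), and Npc2 most like Epb41l2 (0.963), Itm2b (0.957) and Ctsb (0.955). Apoe was most like Grina (0.952), Ttyh3 (0.949) and Tlr3 (0.943), and Abca1 most like Zfp36l1 (0.926), Tpbgl (0.901) and Ppp1r15a (0.893). Among those most like Abcg1 were Csmd3 (0.920) and Ppp2r2a (0.916), and Soat1 was most like Nherf1 (0.917), Sh3pxd2b (0.890) and Rab34 (0.889). The receptors had looser neighbours, Nr1h2 with Lasp1 (0.838), Myo7a (0.838) and Plin2 (0.833), and Nr1h3 with Oat (0.845), Mertk (0.828) and Alpk1 (0.823). Of the 30 genes chosen by Pearson's r, 8 were again among the 3 most alike by Spearman's rho.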

How the data were processed

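RNA from immunopanned cortical oligodendrocytes, OPCs, astrocytes and microglia was amplified and sequenced in 43 libraries. The authors aligned reads with STAR 2.7.8a to GRCm39 and counted them with HTSeq (names from the submitters' processing notes), and the deposited values are whole-number counts per gene without normalization. HTSeq's sums of reads not counted on a gene, for whatever reason (33.5% to 52.0% per library), were left out. Groups follow the labels.

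Genotype and sex were tested per cell type with edgeR 4.0.16 in R 4.3.3 (quasi-likelihood, TMM, terms for sex and genotype), cell types and the interaction in a joint fit with 8 groups and sex. Genes passed filterByExpr (minimum count 10, minimum total 15), and Benjamini-Hochberg adjusted p under 0.05 was a call. The genotype comparison of each cell type and the control contrast of OPCs against astrocytes were first tested on simulated counts. The sex and interaction tests and the other contrasts were not. The study used DESeq2, here version 1.42.0 and an alternative. Replicate libraries of a group differed beyond counting error (smallest chi-square 8.18 per gene). Labels number littermate pairs, and deviations of littermates correlated by 0.111, 0.0889, 0.135 and 0.0865 on average (oligodendrocytes, OPCs, astrocytes, microglia), against -0.036, -0.018, -0.026 and -0.018 between pairs. Coordinates and transcript lengths came from the GENCODE M39 annotation, which held 54749 of 55416 identifiers.

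The 10 genes and all lists were chosen with earlier results of these data known. Of each pathway list, the 2 genes with the largest change against their highest cell type in controls are named, with any called by genotype or interaction. For likeness, the 3 genes with the highest r are named, except for some that are not reported here, and for genotype the gene with the smallest p in each cell type. Genes with an unadjusted p under 0.05 and the pair patterns were chosen after their values were seen. Alternatives were DESeq2 size factors, library totals, no filter, DESeq2, the pair or mouse as a replicate block, heterozygous controls only, a single term, counts without mitochondrially encoded genes, medians, Spearman's rho, each library left out and, added later, marker sums as covariates.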

Additional observations from a re-analysis of the deposited data

Results flagged for a closer look

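Of 80 groups of libraries (10 genes, 4 cell types, 2 genotypes), 2 held a library far from the others by Dixon's test, where chance flags about 1 in 20. Npc2 in the OPC Rag2-/- library of replicate 3 was at 112 normalized CPM against 53.1 to 57.9 in the other libraries of its group, and its control littermate (93.7) was also the highest of its group. These 2 libraries of pair 3 also had the highest microglia marker sums, 1009 and 954 against 177 to 452 in the other OPC libraries, and the part of microglial RNA in the value was not tested. Abcg1 in the microglia control library of replicate 1 was at 51.3 against 70.1 to 78.9.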

How the results depend on the processing

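The genotype and sex counts of the 10 genes were 0 throughout, except without the filter on low counts, where 2 genes were called by genotype in OPCs, 1 by sex in astrocytes and 1 by sex in microglia. Over all genes, genotype calls without the filter were 14, 90, 30 and 9 (oligodendrocytes, OPCs, astrocytes, microglia) and with DESeq2 13, 3, 1 and 1, and interaction calls were 53, 1011 without the filter, 445 with DESeq2, 28 with library totals and 5 with the mouse as a replicate block. The cause was not tested.

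The littermate pair was also used as a replicate block in place of sex. The log2 genotype differences were then 0.65 for Abcg1 in oligodendrocytes and 0.43 and 0.86 for Clu and Lcat in OPCs. The block changed no genotype call of these genes. With the astrocyte marker sum as a covariate, Lcat in OPCs was -0.036.

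Between control cell types, 2844 of 2940 recomputed values kept direction and call, 26 lost and 31 gained the call and 39 changed sign. With library totals the median log2 difference of all genes was -1.21 for oligodendrocytes against OPCs (-0.17 with TMM), -0.93 for oligodendrocytes against microglia (-0.04 with TMM) and 0.52 for OPCs against astrocytes (0.14 with TMM). On that scale, Abca1 in OPCs against astrocytes was 0.044, Nr1h2 in OPCs against astrocytes 0.023, Npc2 in oligodendrocytes against OPCs -0.78 and Abcg1 in oligodendrocytes against microglia -0.88 (adjusted p = 0.0189 by edgeR). The last, near 0 at 0.0023 with TMM, was -0.0079 with DESeq2 size factors, -0.032 without mitochondrially encoded genes, -0.063 without the filter, -0.0085 with DESeq2 and -0.024 with the mouse as a replicate block. With any library left out it ran from -0.17 to 0.072, Apoe in OPCs against microglia from -0.25 to 0.031, Npc2 in oligodendrocytes against OPCs from -0.025 to 0.45, Nr1h2 in oligodendrocytes against OPCs from -0.90 to 0.017 and Soat1 in OPCs against microglia from -0.024 to 0.12.

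Lcat in microglia and Nr1h3 outside astrocytes and microglia rested on few counts, which limits their folds.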
